A study of Mus musculus with 2 samples.

Results

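Solute carriers are membrane proteins that move sugars, amino acids, metals, nucleosides, organic acids and many other small molecules across the plasma membrane, the membranes of organelles and the inner mitochondrial membrane. Their genes carry symbols that start with Slc and a family number. On the arrays described here, 286 genes had such a symbol, with 1 further gene left out by the selection. Of these 286, 161 had a ratio at both time points and are the genes described. Another 8 had a ratio at day 1 only, 30 at day 3 only, and 87 on neither array. All named genes numbered 16446, of which 9815 had a ratio on both arrays.

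The RNA came from bone marrow stromal cells of C57BL/6 mice, taken after 9.5 Gy of total body irradiation, at 1 day or at 3 days, or from unirradiated animals. Each time point was hybridised on 1 two-channel array, with unirradiated RNA in Cy5 and irradiated RNA in Cy3. The series lists 6 mice without saying which group or pool each belonged to, and the sources used here do not give the isolation of the stromal cells. There was no dye swap and no second array, so the values below carry no replicate error and no p-value.

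Values are log2 ratios, with the median over genes of each array set to 0. A gene is called higher or lower when its ratio is at least 2-fold, a log2 value of at least 1 in size. Which channel is the numerator was not stated. Positive values are read as higher in irradiated RNA. This direction is likely but not established, and rests on p53 target genes, a group induced by radiation, which had a median above 0 on both arrays (1.504 and, at day 3, 1.09) and above that of mitotic genes (0.89 and, at day 3, -3.17). Were the ratio inverted, each "higher" would read "lower" and the reverse. Both arrays had unirradiated RNA in the other channel, so values that are alike on both may share that RNA or a dye bias of the probe. Each Slc gene was read by 1 probe.

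Carriers set what a cell can take up and release. Amino acid carriers feed protein and haem synthesis, and several of them work only as pairs of a heavy and a light chain. Facilitated glucose transporters pass sugar down its gradient, while sodium-coupled ones pump it uphill. Zinc is imported into the cytosol by the Slc39 family and exported by the Slc30 family, and iron leaves cells through ferroportin. The Slc25 family exchanges nucleotides, organic acids and amino acids across the inner mitochondrial membrane. In marrow, iron and glycine carriers serve red cell precursors, and phagocytes carry their own set of sugar, peptide and metal transporters.

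At day 1, 9 of the 161 Slc genes (5.59%) were at least 8-fold higher, against 2.99% of the 9815 genes on both arrays. The sequences just upstream of the annotated starts of the 4 highest with an entry in the RefSeq promoter table, and of Slc25a21, the lowest gene at day 1, are shown so that the extremes of the day 1 array can be set side by side. Each runs 5′ to 3′ over the 250 bases before the start (GRCm38.p6). For Slc25a21, 1 of 2 starts in the table is shown. Capitals mark GGAAGT, the core bound by ETS factors, or ACGTG, the core of hypoxia response elements, on either strand.
Slc2a6, chr2:27027999-27028248, minus strand: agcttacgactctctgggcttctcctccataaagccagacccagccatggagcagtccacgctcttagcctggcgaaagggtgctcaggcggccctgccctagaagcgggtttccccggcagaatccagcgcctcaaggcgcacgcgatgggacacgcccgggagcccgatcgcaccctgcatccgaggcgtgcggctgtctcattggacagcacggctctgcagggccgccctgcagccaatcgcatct
Slc28a2, chr2:122426185-122426434, plus strand: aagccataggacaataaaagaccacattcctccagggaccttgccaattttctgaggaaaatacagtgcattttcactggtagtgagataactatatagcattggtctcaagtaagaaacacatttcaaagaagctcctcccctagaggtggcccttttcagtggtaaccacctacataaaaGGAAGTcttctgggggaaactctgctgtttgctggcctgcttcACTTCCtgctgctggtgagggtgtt
Slc16a3, chr11:120948817-120949066, plus strand: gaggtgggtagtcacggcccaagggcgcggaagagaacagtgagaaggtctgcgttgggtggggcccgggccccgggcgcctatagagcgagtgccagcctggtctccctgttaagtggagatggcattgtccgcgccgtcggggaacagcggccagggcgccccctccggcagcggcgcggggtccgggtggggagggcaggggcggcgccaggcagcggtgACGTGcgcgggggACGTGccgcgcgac
Slc15a2, chr16:36784963-36785212, minus strand: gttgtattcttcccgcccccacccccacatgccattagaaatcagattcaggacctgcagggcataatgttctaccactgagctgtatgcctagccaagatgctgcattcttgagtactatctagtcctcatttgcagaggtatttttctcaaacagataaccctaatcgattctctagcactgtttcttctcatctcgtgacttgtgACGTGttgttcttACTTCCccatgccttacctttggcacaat
Slc25a21, chr12:57197473-57197722, minus strand: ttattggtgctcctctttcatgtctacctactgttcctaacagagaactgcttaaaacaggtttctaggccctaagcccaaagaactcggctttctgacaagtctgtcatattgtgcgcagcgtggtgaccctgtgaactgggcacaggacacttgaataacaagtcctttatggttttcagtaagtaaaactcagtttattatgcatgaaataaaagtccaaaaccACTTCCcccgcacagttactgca
Slc2a6 held neither motif, Slc28a2 had 2 matches to the ETS core, Slc16a3 had 2 to the hypoxia core, Slc15a2 had 1 of each, and Slc25a21 had 1 to the ETS core. These windows differ in base composition, from 43.2% G and C upstream of Slc25a21 to 73.6% upstream of Slc16a3. Of the 161 genes, 131 matched an entry. For each gene, the first start in the table was read. The ETS core was present upstream of 27 of those 131 (20.6%) and of 20.0% of all 27025 genes read. The hypoxia core was present in 34 of 131 (26.0%) and in 16.6% of all genes read. By day 1 call, it was present in 4 of 20 higher genes (20.0%) and in 6 of 19 lower genes (31.6%). Of the genes at least 8-fold higher, 2 of 6 held it. The core of the amino acid response element, TGATGNAA, was present in 2 of 131 (1.53%) and in 3.53% of all genes read. Unlike the 131, all genes read include genes without a ratio on these arrays, and no difference in share was tested. No motif overlapped another in the windows printed. A match is a run of letters and not evidence of binding.

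Counted over all 161 genes, the share of carriers past 2-fold was near that of all genes at day 1 and above it at day 3, a difference that was not tested. At day 1, 25 (15.5%) were higher by at least 2-fold and 24 (14.9%) lower by as much, against 17.2% and 11.7% of the 9815 genes on both arrays. At day 3, 16 (9.94%) were higher and 14 (8.70%) lower, against 6.11% and 6.75%. The median was -0.11 at day 1 and 0.0048 at day 3, beside -0.05 and -0.02 for all genes on both arrays. These splits depended on the centring: with ribosomal protein genes at 0, which moved all values by 0.49 at day 1 and 0.53 at day 3, 40 Slc genes were higher and 8 lower at day 1, and 33 and 3 at day 3. With the density peak at 0, a shift of 0.18 at day 1, the day 1 counts were 27 and 17.

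**Figure D1:**
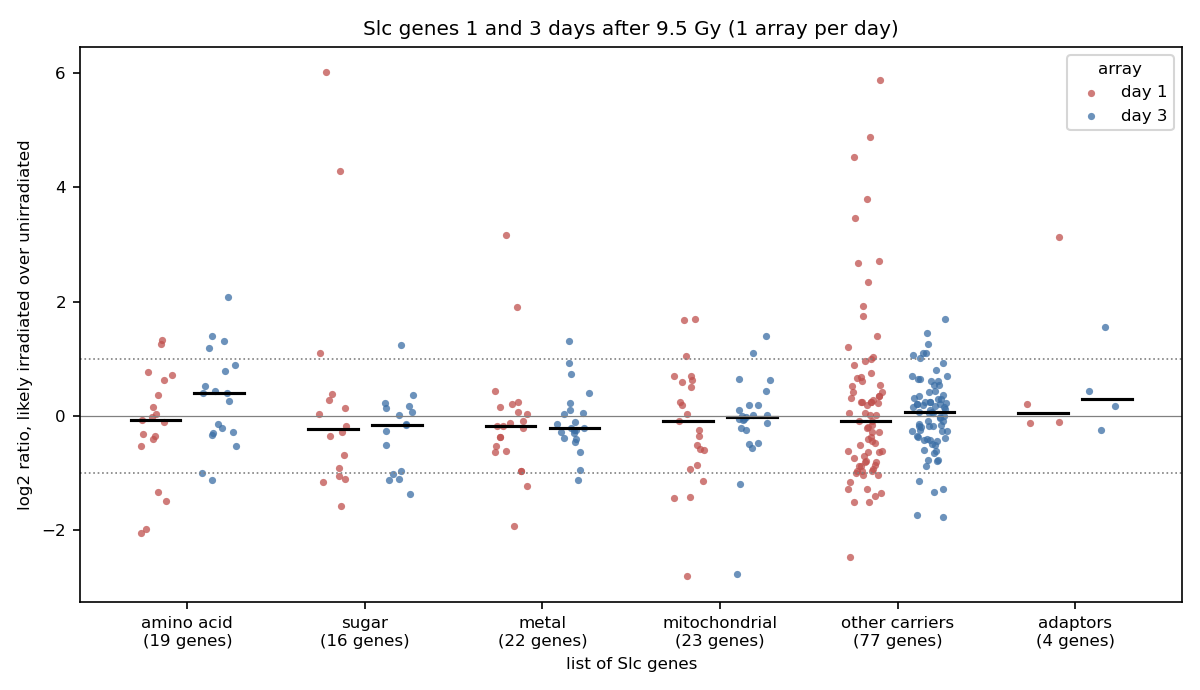
Log2 ratios (vertical axis) of the 161 Slc genes, split into lists by what they carry, at day 1 (red, left) and day 3 (blue, right) after irradiation. Each point is 1 gene on 1 array, black bars are medians and dotted lines mark 2-fold; 9 genes lie between 3.14 and 6.01 at day 1, while the list medians lie between -0.23 and 0.39 on both arrays.

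Marker genes of blood cells had large ratios on the day 1 array. There, all 13 pan-leukocyte genes with a ratio (of 14 listed) were at least 2-fold higher, from 4.36 to 8.17 with a median of 5.33, and so were all 15 granulocyte genes, with a median of 5.89. Of 11 macrophage and monocyte genes 7 were past 2-fold on the higher side, and their median was 4.44. Erythroid genes had a median of -2.99, with 7 of 8 lower. At day 3 the medians were 0.05 for pan-leukocyte, -0.70 for granulocyte, 0.92 for macrophage and -1.79 for erythroid genes, while 13 of 14 endothelial and 6 of 9 adipocyte genes were higher by 2-fold or more, with medians of 1.66 and 1.44. Mesenchymal stromal genes had medians of -0.66 over 8 genes and 0.24 over 8 genes, and osteoblast genes -1.14 over 7 and -0.97 over 8. Ratios hold no expression level, so the presence of stromal cells could not be checked from their markers. In bulk RNA, fewer cells of a type and less RNA per cell cannot be told apart.

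The 9 Slc genes at least 8-fold higher at day 1 carry sugars, peptides, nucleosides, lactate and metals, and 1 is a scaffold. Slc2a6, a glucose transporter family member of lysosomes that inflammatory macrophages induce, was the highest at 6.01 (64.6-fold). It was followed by Slc15a3 (5.87, 58.5-fold), which exports peptides and histidine from lysosomes of macrophages, and Slc28a2 (4.89, 29.6-fold), a sodium-coupled importer of purine nucleosides. Slc16a3, the lactate exporter MCT4 of glycolytic cells, stood at 4.54. Slc2a3, the high-affinity glucose transporter GLUT3 of neurons and white blood cells, stood at 4.29, and Slc15a2, a proton-coupled peptide importer, at 3.79. The remaining genes were Slc35d2 (3.47), a nucleotide sugar transporter of the Golgi, Slc11a1 (3.17), the NRAMP1 metal exporter of phagosomes, and Slc9a3r1 (3.14), a scaffold protein that binds a sodium-proton exchanger and is not itself a carrier.

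At day 3 the same 9 genes lay between -0.30 and 1.46, with a median of 0.17. Slc2a6 was at 0.02, Slc15a3 at 0.19, Slc16a3 at 0.16, Slc2a3 at 0.14, Slc15a2 at 0.54, Slc11a1 at -0.30 and Slc9a3r1 at 0.17. Slc28a2 (1.46) and Slc35d2 (1.07) were past 2-fold at day 3 as well. These 9 genes were picked by their day 1 values. The pan-leukocyte genes had medians of 5.33 at day 1 and 0.05 at day 3. Their part in the values of these 9 genes was not tested.

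**Figure D2:**
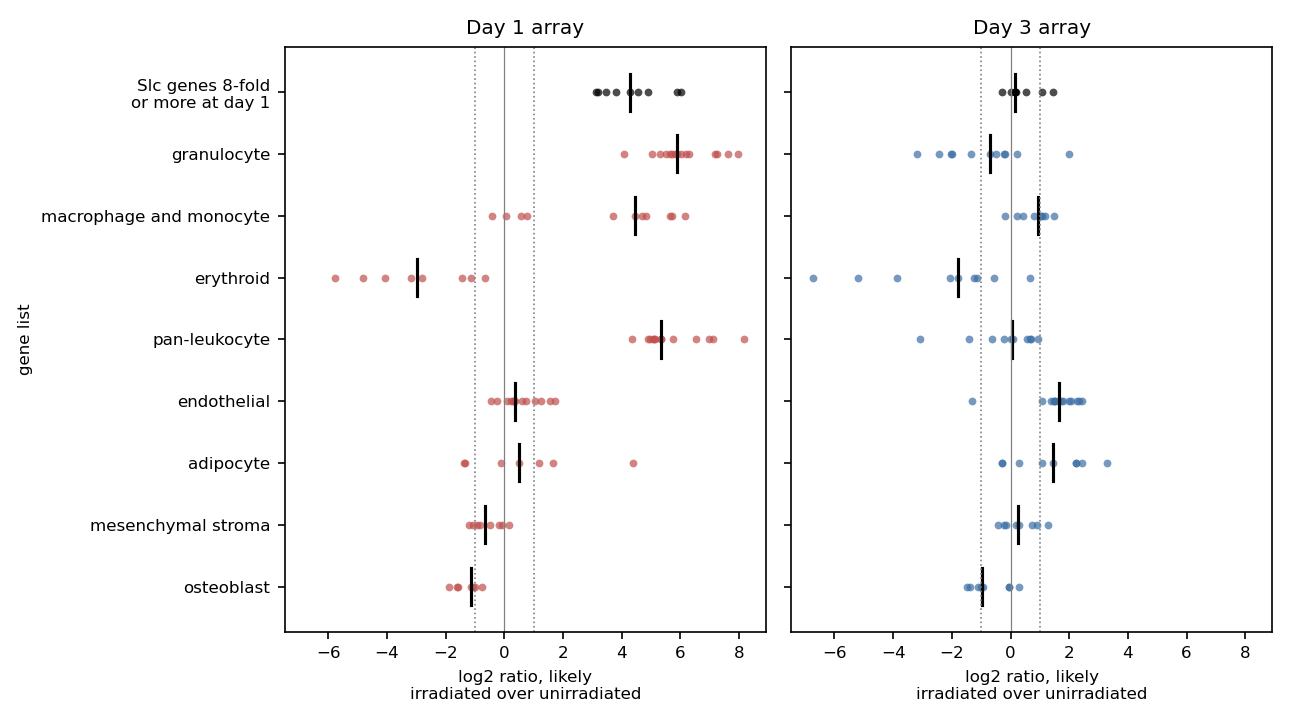
Log2 ratios (horizontal axis) at day 1 (left panel) and day 3 (right panel) of the 9 Slc genes at least 8-fold higher at day 1 (black, top row) and of the marker lists of 8 cell types below them. Each point is 1 gene, bars are medians and dotted lines mark 2-fold; the 9 Slc genes lie between 3.14 and 6.01 at day 1, beside pan-leukocyte genes at 4.36 to 8.17, and between -0.30 and 1.46 at day 3.

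Amino acid carriers had a median near 0 at day 1 and the highest median of the 4 substance lists at day 3. Of 45 such genes on the platform, 19 were measured on both arrays, a smaller share (42.2%) than for all named genes (59.7%). Among the 19, 2 were at least 2-fold higher and 4 lower at day 1, with a median of -0.08, and 4 were higher and 2 lower at day 3, with a median of 0.39. The shares of all genes were 17.2% and 11.7% at day 1 and 6.11% and 6.75% at day 3. Over all 28 amino acid carriers with a ratio at day 3, the median was 0.06. The day 1 median turned to 0.10 with the density peak at 0 and to 0.41 with ribosomal protein genes at 0.

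The amino acid carriers that were lower at day 1 handle small neutral and basic amino acids. Slc38a3, the glutamine carrier SNAT3, was at -2.05 at day 1 and -0.53 at day 3. Slc36a2, a proton-coupled carrier of glycine and proline, was at -1.97 and -1.12. Slc6a9, the glycine transporter GlyT1, which supplies glycine for haem synthesis in red cell precursors, was at -1.48 and -0.30. Slc7a6, a light chain that exchanges basic for neutral amino acids, was at -1.33 and -0.29. All 4 were closer to 0 at day 3, but they were picked for low day 1 values. Of all 1146 genes at least 2-fold lower at day 1, 899 were within 2-fold at day 3. The erythroid median was -2.99 at day 1 and -1.79 at day 3. Of the 8 erythroid genes measured on both arrays, 5 rose between the days and 3 fell. The part of red cell precursors in these values was not tested.

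The carriers that many growing cells rely on for glutamine and leucine stayed within 2-fold at day 1. Slc1a5, the glutamine carrier ASCT2, was at -0.32 at day 1 and 0.43 at day 3, and its relative Slc1a4 (ASCT1) at -0.11 and 0.90. Slc38a1 and Slc38a2, the sodium-coupled carriers SNAT1 and SNAT2, were at -0.02 and 0.16 at day 1, and both at 0.39 at day 3. Slc3a2, the CD98 heavy chain, was at -0.08 and 0.26. Its leucine-carrying partner Slc7a5 (LAT1) was at -0.35 and -1.01, so at day 3 the light chain stood just past the 2-fold line on the lower side and its heavy chain did not. The call of Slc7a5 was lost at -0.99 without further centring.

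On the higher side at day 3 stood carriers of other kinds. Slc6a17, a vesicular carrier of neutral amino acids known from neurons, was at 0.63 at day 1 and had the highest value of all 161 genes at day 3, 2.09 (4.25-fold). Slc36a3, a relative of Slc36a2, was at 1.33 and 1.41, and Slc3a1, the rBAT heavy chain of kidney cystine transport, at 1.26 and 1.32. Slc6a6, the taurine transporter, was at 0.77 and 1.19. The other members lay within 2-fold on both arrays: Slc1a6 (0.71 and 0.80), Slc7a7 (0.37 and 0.53), Slc6a20 (0.04 and -0.20), Slc1a7 (-0.40 and -0.34) and Slc7a10 (-0.52 and -0.14). Mice have a pair of closely related Slc6a20 genes that the symbol on the array does not separate.

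A further 9 amino acid carriers had a ratio at day 3 only, and among them was the lowest value of any Slc gene on that array. Slc38a5, a sodium-coupled glutamine and glycine carrier, was at -4.20, and Slc43a1, a leucine carrier, at -2.39. Slc7a2, an arginine carrier, was at 1.15 and Slc7a11, the cystine importer that feeds glutathione synthesis, at 1.11. The remaining 5 lay within 2-fold. Of all 1614 genes with a ratio at day 3 only, 15.0% were at least 2-fold higher and 7.37% lower. Genes of the amino acid response, through which cells short of amino acids raise synthesis and uptake, included 3 of 13 at least 2-fold lower and none higher at day 1, and 5 of 14 lower and 1 higher at day 3. Among the 9815 genes on both arrays, 11.7% were lower and 17.2% higher at day 1. The day 3 shares of those genes were 6.75% lower and 6.11% higher, and no difference from them was tested. Asns, asparagine synthetase, was at -1.35 and -2.06, and Psat1, of serine synthesis, at -0.23 and -2.63. The regulator Atf4 was at 0.45 and 0.18.

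**Figure D3:**
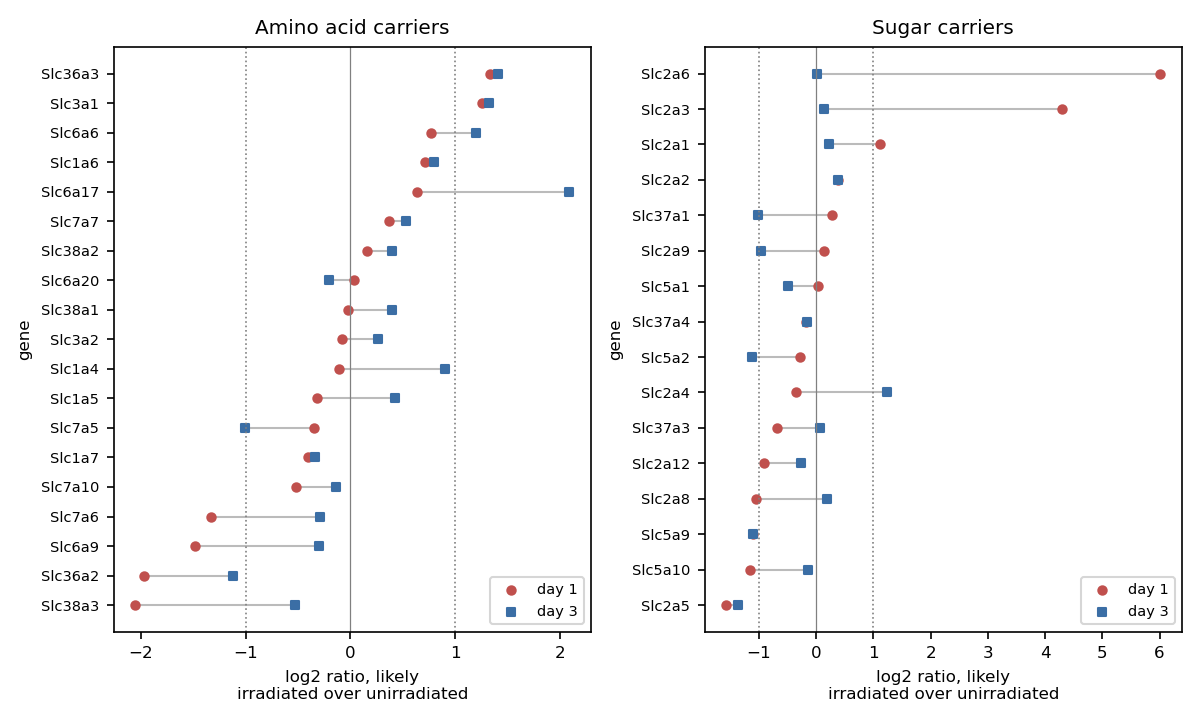
Log2 ratios (horizontal axis) of the 19 amino acid carriers (left panel) and 16 sugar carriers (right panel), 1 gene per row, at day 1 (red circles) and day 3 (blue squares), sorted by day 1. Dotted lines mark 2-fold; Slc2a6 and Slc2a3 stand apart at day 1 and lie near 0 at day 3, and Slc6a17 is the highest amino acid carrier at day 3.

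Sugar carriers past 2-fold at day 1 lay on both sides. Among the 16, 3 were higher by 2-fold or more and 4 lower, beside 17.2% and 11.7% of all genes, with a median of -0.23, while the mean, to which Slc2a6 and Slc2a3 contribute, was 0.31. The 3 higher ones were all facilitated transporters: besides those already described, Slc2a1, the widespread transporter GLUT1, stood at 1.11. The lower ones were Slc2a5 (-1.57), a fructose transporter, Slc2a8 (-1.05), an intracellular member, and the sodium-coupled sugar carriers Slc5a10 (-1.15) and Slc5a9 (-1.10). With the density peak at 0, Slc2a5 was the 1 sugar carrier left past 2-fold on the lower side. With ribosomal protein genes at 0 the list's median was 0.26. With the median over genes at 0, the 9 Slc2 genes alone had a median of 0.14.

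At day 3, 1 sugar carrier was at least 2-fold higher and 4 were lower, against 6.11% and 6.75% of all genes, with a median of -0.15. When ribosomal protein genes were put at 0, none of the 4 lower calls remained and the median was 0.38. With the median over genes at 0, the Slc2 genes alone had a median of 0.14 at day 3. Slc2a4, the insulin-responsive transporter GLUT4 of fat and muscle, was at -0.35 at day 1 and 1.24 at day 3. The adipocyte genes had medians of 0.49 at day 1 and 1.44 at day 3. The part of fat cells in the values of Slc2a4 was not tested. Slc2a5 (-1.37), Slc5a9 (-1.10), Slc5a2 (-1.12), the kidney glucose reabsorber SGLT2, and Slc37a1 (-1.01), a glucose phosphate exchanger of the endoplasmic reticulum, were lower, though Slc37a1 was inside 2-fold (-0.99) without further centring. Slc2a1 was at 0.23. Slc2a9, a urate carrier, was at 0.14 and -0.96, and the intestinal SGLT1 gene Slc5a1 at 0.04 and -0.50. Slc2a12 was at -0.90 and -0.26, Slc37a3 at -0.68 and 0.07, Slc37a4, the glucose 6-phosphate carrier of the endoplasmic reticulum, at -0.18 and -0.15, and the liver transporter Slc2a2 at 0.39 and 0.37.

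Genes that use glucose inside the cell were also split at day 1, where 3 of 13 lay past 2-fold on each side. None of 13 lay outside 2-fold at day 3. Of all genes, 17.2% were higher and 11.7% lower at day 1, and 6.11% and 6.75% at day 3. Pygl, the glycogen phosphorylase of liver and white blood cells, was at 4.13 and 0.03 and hexokinase 2, Hk2, at 1.28 and 0.39, whereas the muscle phosphofructokinase Pfkm was at -2.46 and -0.84. The lactate carriers differed from each other. Slc16a3, described above, was at 4.54 and 0.16, while Slc16a1, the MCT1 carrier that takes up or releases lactate, was lower on both arrays at -1.50 and -1.33.

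Metal carriers had the smallest share of genes past 2-fold of the 4 lists. Of 22, 2 were at least 2-fold higher and 2 lower at day 1, and 1 and 1 at day 3, or 18.2% and 9.09% in all, against 28.8% and 12.9% of genes on both arrays. The medians were -0.18 and -0.21, or 0.31 and 0.32 with ribosomal protein genes at 0. The 2 higher genes at day 1 both handle iron in macrophages. Slc11a1 was at 3.17 at day 1 and -0.30 at day 3. Slc40a1, ferroportin, the only known iron exporter of mammalian cells, was at 1.90 and 1.31. Slc11a2, the DMT1 importer through which red cell precursors take iron out of endosomes, was at -0.12 and -1.13.

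Zinc importers of the Slc39 family had a median of -0.45 at day 1, or 0.04 with ribosomal protein genes at 0. Of 10 genes, 2 were past 2-fold on the lower side and none on the higher, against 11.7% and 17.2% of all genes. Slc39a1 (ZIP1), a plasma membrane zinc importer, was at -1.93 at day 1 and -0.27 at day 3, and Slc39a14 (ZIP14), which also takes up iron and manganese, at -1.23 and -0.21. Slc39a8 (-0.97 and 0.03) and Slc39a13 (-0.96 and -0.40), a carrier of connective tissue cells, were just within 2-fold. The others were Slc39a3 (-0.53 and 0.23), Slc39a6 (-0.37 and -0.25), Slc39a7 (-0.36 and -0.46), Slc39a5 (-0.18 and -0.21), Slc39a11 (0.03 and -0.94) and Slc39a10 (0.08 and 0.41). At day 3 all 10 were within 2-fold, with a median of -0.23.

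The 6 zinc exporters of the Slc30 family were all within 2-fold on both arrays, with medians of 0.03 and 0.08. Slc30a1 (ZnT1), which exports zinc across the plasma membrane and is induced by it, was the highest at day 1 (0.43) and stood at 0.74 at day 3. Slc30a4 was at -0.17 and 0.92, Slc30a9 at -0.22 and -0.39, Slc30a5 at -0.08 and -0.14, Slc30a6 at 0.15 and 0.11 and Slc30a7 at 0.25 and 0.05. The magnesium carriers Slc41a1 (-0.64 and -0.10), Slc41a2 (-0.61 and -0.63) and Slc41a3 (0.22 and -0.24) were also within 2-fold. Among other zinc and iron genes, Hmox1, which frees iron from haem, was at 2.72 and 1.59, and the ferritin chains Fth1 and Ftl1 were at 1.07 and 1.05 at day 1. In that list, 4 of 12 were at least 2-fold higher and 3 lower at day 1, and 1 of 13 each way at day 3. For all genes the shares were 17.2% and 11.7% at day 1, and 6.11% and 6.75% at day 3.

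**Figure D4:**
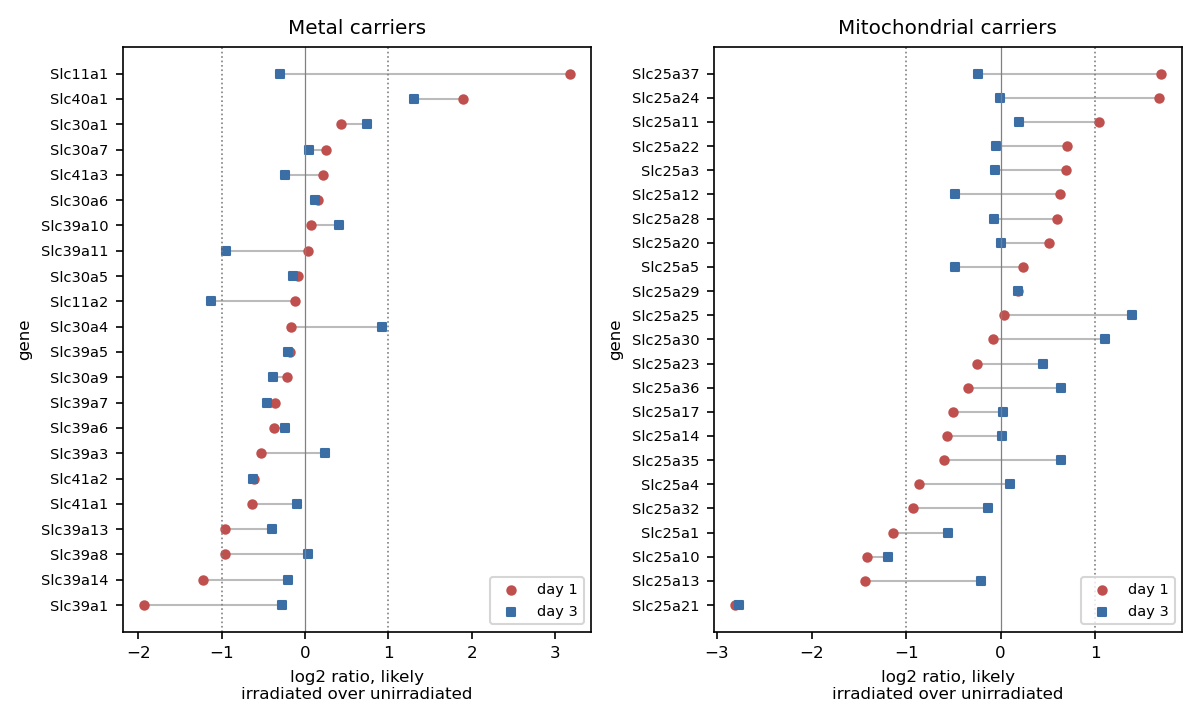
Log2 ratios (horizontal axis) of the 22 metal carriers (left panel) and 23 mitochondrial carriers (right panel), 1 gene per row, at day 1 (red circles) and day 3 (blue squares), sorted by day 1. Dotted lines mark 2-fold; Slc11a1 spans the widest distance between the days among metal carriers, and Slc25a21 is the lowest gene on both arrays.

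Mitochondrial carriers of the Slc25 family were the best covered list, with 23 of 29 genes measured on both arrays. Of these, 3 were at least 2-fold higher and 4 lower at day 1, and 2 and 2 at day 3, with medians of -0.08 and -0.0100. In all, 30.4% were past 2-fold at day 1 and 17.4% at day 3, near the 28.8% and 12.9% of all genes. The sign of both medians depended on centring, at 0.41 and 0.52 with ribosomal protein genes at 0. Slc25a21, which brings oxoadipate and oxoglutarate into mitochondria, was the lowest of all 161 genes at both times, at -2.81 at day 1 and -2.77 at day 3 (6.81-fold lower). Slc25a10, the dicarboxylate carrier, was also lower on both, at -1.42 and -1.19.

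Carriers that feed the citrate and aspartate shuttles were not alike. Slc25a1, the citrate exporter that supplies fat synthesis, was at -1.14 and -0.56. The aspartate-glutamate carriers split at day 1, with Slc25a13 (citrin) at -1.43 and Slc25a12 (aralar) at 0.62, and stood at -0.21 and -0.49 at day 3. Slc25a11, the oxoglutarate carrier of the malate shuttle, was at 1.04 and 0.19, and the glutamate carrier Slc25a22 at 0.70 and -0.05. Slc25a20, which brings in acylcarnitines for fat oxidation, was at 0.51 and 0.0048.

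The carriers of nucleotides and phosphate included both directions. Of the ADP/ATP translocases, Slc25a4 was at -0.86 at day 1 and 0.10 at day 3, and Slc25a5 at 0.24 and -0.48. The phosphate carrier Slc25a3 was at 0.69 and -0.06. The calcium-regulated ATP-Mg carriers also differed. Slc25a24 was at 1.68 and -0.0100, Slc25a25 at 0.04 and 1.39, and Slc25a23 at -0.25 and 0.44, so a different paralogue was past 2-fold on each array. The pyrimidine nucleotide carrier Slc25a36 was at -0.34 and 0.64, and Slc25a17, which works in peroxisomes, at -0.51 and 0.02.

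Of the mitochondrial iron importers, 1 of 2 was past 2-fold at day 1. Slc25a37, mitoferrin 1, which supplies iron for haem synthesis in red cell precursors, was at 1.69 at day 1 and -0.24 at day 3, and Slc25a28, its widely expressed relative mitoferrin 2, at 0.60 and -0.07. On the same day 1 array erythroid genes had a median of -2.99 and granulocyte genes of 5.89, and the part of either cell type in these values was not tested. Slc25a30, a carrier first described in kidney, was at -0.08 and 1.11. The folate carrier Slc25a32 was at -0.93 and -0.13, Slc25a35 at -0.60 and 0.64, Slc25a14 at -0.57 and 0.01, and the basic amino acid carrier Slc25a29 at 0.18 on both arrays. Of all genes, 28.8% were past 2-fold at day 1 and 12.9% at day 3. Mitochondrial carriers and channels with other symbols mostly lay within 2-fold, 10 of 11 at day 1 and 12 of 12 at day 3. The exception was Ucp2, an uncoupling protein family member abundant in white blood cells, at 2.31 and -0.88.

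Of the 77 carriers of other families, 14 (18.2%) were past 2-fold on the higher side at day 1 and 10 (13.0%) on the lower. These shares were near the 17.2% and 11.7% of all genes. At day 3 the counts were 7 (9.09%) and 5 (6.49%), against 6.11% and 6.75% of all genes. In the Slc15 family 2 of 3 genes were high at day 1, and the third, Slc15a4, another lysosomal histidine and peptide carrier, was at 0.28 and -0.24. Slc27a4, a fatty acid transport protein, was at 2.71 at day 1 and 0.53 at day 3, while its relatives Slc27a1 (-0.36 and 0.29) and Slc27a3 (-0.96 and 0.37) were within 2-fold. Slc10a4, a vesicular orphan carrier, was at 2.67 and 0.61, and Slc18a2, which loads monoamines into vesicles, at 1.75 and -0.17. Slc34a2, a sodium-phosphate cotransporter, sat on the 2-fold line at day 1 (1.00) and was at 0.65 at day 3, and it lay just short of the line without further centring (0.99).

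Equilibrative nucleoside transporters of the Slc29 family lay on both sides at day 1 and within 2-fold at day 3. Slc29a1 (ENT1), of the plasma membrane, was at -1.04 and 0.15, and its day 1 value was inside 2-fold when the zero was set at ribosomal protein genes (-0.55), at the density peak (-0.86) or at the median of genes on both arrays (-0.98). The others were Slc29a2 (ENT2) at 1.39 and -0.0093, and Slc29a3 (ENT3), of lysosomes, at 1.04 and -0.51. Vitamin carriers also split: the folate carrier Slc19a1 was at -1.15 and -0.27, the thiamine carrier Slc19a2 at 1.20 and 1.69, and Slc23a2, which imports vitamin C, at -1.27 and 0.24. Among the 161 genes, Slc19a2 had the highest day 3 value outside the amino acid list.

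The Slc35 family includes nucleotide sugar carriers, which supply the Golgi and endoplasmic reticulum with building blocks for glycans. The 16 genes of the family, not all of them such carriers, had a median of -0.30 at day 1 and -0.32 at day 3. At day 1, 3 were higher (18.8%) and 2 lower (12.5%) by at least 2-fold, near the 17.2% and 11.7% of all genes. Slc35d2 was at 3.47 at day 1 and 1.07 at day 3, Slc35b4, a carrier of UDP-xylose and UDP-N-acetylglucosamine, at 2.35 and -1.14, and Slc35a5 at 1.93 and 0.32. Slc35a2, the UDP-galactose carrier, was at -2.46 and -0.65, and Slc35b2, which carries the sulfate donor PAPS, at -1.28 and -0.79.

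Of the other carriers past 2-fold at day 3, some were within 2-fold at day 1. Slc10a6, a carrier of steroid sulfates, was at 0.31 at day 1 and 1.26 at day 3, Slc24a5 at 0.01 and 1.10, Slc16a4 at 0.53 and 1.09 and the potassium-chloride cotransporter Slc12a7 at 0.06 and 1.02. The scaffold gene Slc9a3r2, a relative of Slc9a3r1, was at 0.20 and 1.56. On the lower side, Slc13a5, a citrate importer, was at -0.63 and -1.77, the bile acid importer Slc10a2 at -1.03 and -1.73, and Slc45a4 at -1.35 and -1.28.

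**Figure D5:**
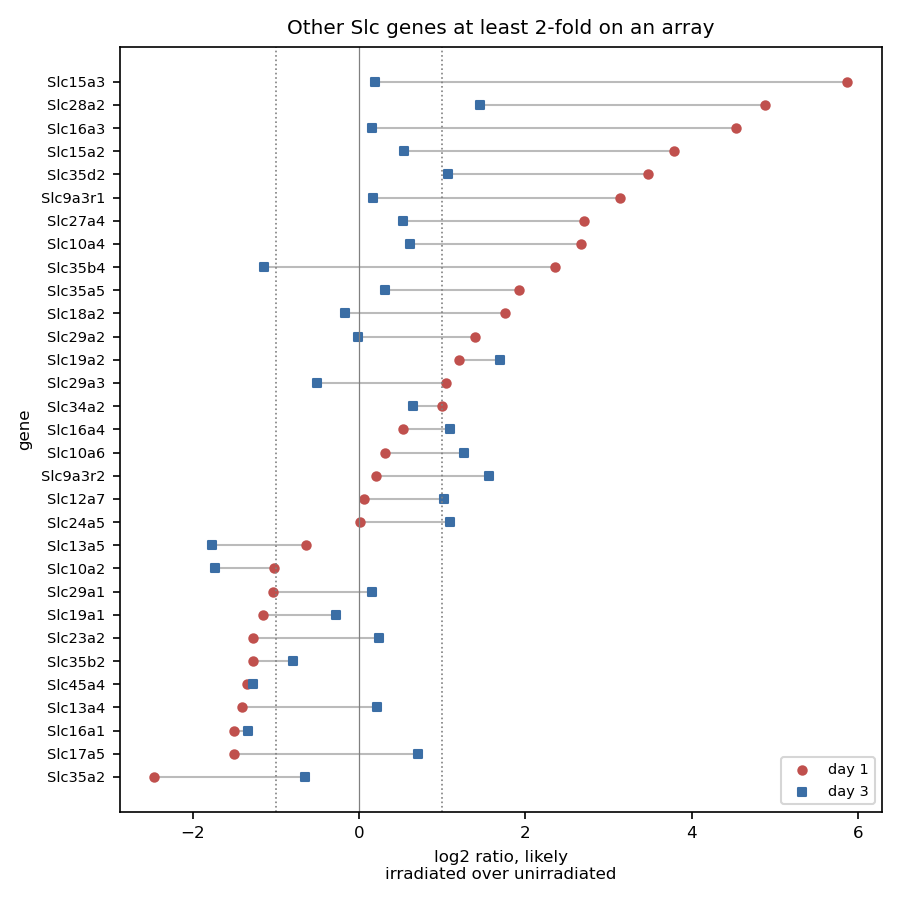
Log2 ratios (horizontal axis) of the Slc genes outside the 4 substance lists that were at least 2-fold higher or lower on an array, 1 gene per row, at day 1 (red circles) and day 3 (blue squares), sorted by day 1. Dotted lines mark 2-fold; Slc15a3 at 5.87 leads at day 1 and lies at 0.19 at day 3, and Slc35b4 lies past 2-fold on the higher side at day 1 and on the lower side at day 3.

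Between the days, 28 Slc genes (17.4%) were higher at day 3 than at day 1 by at least 2-fold, and 28 were lower by as much, against 12.1% and 16.8% of all genes on both arrays. With the density peak at 0 the counts were 17 and 33. The largest decreases were in Slc2a6 (-5.99), Slc15a3 (-5.68), Slc16a3 (-4.38), Slc2a3 (-4.15), Slc35b4 (-3.50) and Slc11a1 (-3.47). The largest increases were smaller: Slc17a5, the lysosomal sialic acid exporter sialin, differed by 2.20 (-1.50 at day 1 and 0.70 at day 3), Slc35a2 by 1.81, Slc39a1 by 1.66, Slc13a4, a sulfate carrier, by 1.61 (-1.40 and 0.21), Slc2a4 by 1.59 and Slc4a3, an anion exchanger, by 1.56 (-0.63 and 0.93). The pan-leukocyte genes differed by a median of -5.78 over the 10 measured on both arrays, all at least 2-fold lower, and the mesenchymal stromal genes by 1.00 over 7, 3 of them at least 2-fold higher. The part of cell composition in these differences was not tested.

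Among the 4 substance lists, 5 of 19 amino acid carriers stood higher at day 3 than at day 1 by 2-fold or more and none lower, with a median difference of 0.38, where 12.1% of all genes stood higher and 16.8% lower. With the density peak at 0 the count was 2 of 19 and the median 0.20. The 5 comprised Slc38a3 (1.52), Slc6a17 (1.46), Slc6a9 (1.18), Slc7a6 (1.05) and Slc1a4 (1.01). For the other lists these counts were mixed: of sugar carriers 3 of 16 were higher and 4 lower, of metal carriers 3 of 22 and 2, and of mitochondrial carriers 4 of 23 and 3. Their median differences were -0.0075, -0.02 and 0.22. The signs of the sugar and metal medians changed without further centring, to 0.02 and 0.0042.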

How the data were processed

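The authors deposited 1 log ratio per probe and array, already centred (medians 0.0003 at day 1 and -0.0001 at day 3), read here as log2. The base, numerator, scanner, background subtraction, normalization and the reason for empty entries are not given in the sources used here. Entries were empty for 40.5% of 23473 probes at day 1 and for 34.3% at day 3. The labels' protocols give amplification as amino allyl RNA before dye coupling. The platform annotation named 16631 probes. Probes of a gene were averaged and the median over 10451 genes at day 1 and 11429 at day 3 was set to 0. No intensities were used here, so signal over background is unknown, and precision is limited by there being 1 array per time point. Probes of the same gene differed by a pooled SD of 0.78 (69 genes) at day 1 and 0.57 (91 genes) at day 3, which leaves out differences between mice and hybridisations.

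Members are genes whose platform symbol starts with Slc and a digit, with 1 gene left out and a ratio on both arrays. Lists were set by transported substance, and 4 members that are not carriers were kept apart. All members of the 4 substance lists could be named. Of other families, the 2 highest and 2 lowest on each array of families with at least 4 members, members of smaller families past 2-fold, the top and bottom 8 of each array, the 6 largest differences each way, and members past 2-fold on both arrays or in opposite directions could be named. Slc15a4, Slc27a1 and Slc27a3 were named after their values were seen, as relatives of such genes, and so were genes measured at day 3 only. Members, lists and rules were chosen with earlier results of these data known. With 1 array per time point no test was possible. Alternatives were other centrings, probe rules, symbols, thresholds, lists and the natural logarithm. The size rule was tested on simulated data with a smaller spread than that between probes here, and with planted changes well past 2-fold. That test therefore does not give the error rate of the rule in these data. Python 3.11.15, pandas 2.3.3, numpy 2.4.6, scipy 1.17.1 and matplotlib 3.10.9 were used.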

Additional observations from a re-analysis of the deposited data

Results flagged for a closer look

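Slc35b4, the carrier of UDP-xylose and UDP-N-acetylglucosamine, was past 2-fold in opposite directions on the arrays, at 2.35 at day 1 and -1.14 at day 3. With ribosomal protein genes at 0 the day 3 value was -0.61 and no longer past 2-fold. With 1 array per day and 1 probe, the difference was not tested. This pattern, past 2-fold on the higher side at day 1 and on the lower side at day 3, was seen in 86 of the 9815 genes, and the opposite one in 11.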

How the results depend on the processing

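No paired analysis was possible because each time point has 1 array. With ribosomal protein genes at 0, Slc genes at least 2-fold higher and lower numbered 40 and 8 at day 1 and 33 and 3 at day 3. With the density peak at 0, 17 were higher at day 3 relative to day 1. A 1.5-fold rule gave 38 higher and 50 lower at day 1, 30 and 24 at day 3, and 51 higher for the difference. A 3-fold rule gave 5 lower at day 1, 2 higher and 3 lower at day 3, and 5 higher and 16 lower for the difference. Values read as natural logarithms gave 42 lower at day 1 and 45 higher for the difference. The other counts over all 161 genes stayed within 1.5 times under the alternatives run. Counts within lists and families are smaller and moved more often: of 42 such counts, 20 moved by over 1.5 times with ribosomal protein genes at 0, 7 with the density peak at 0, 4 when centred over genes on both arrays and 2 without further centring. Of the recomputed medians over all Slc genes and over the 4 lists, with means over members included, 28 changed sign. The medians of the lists themselves lay between -0.23 and 0.39 on both arrays. Of 79 single values past 2-fold, 27 dropped inside it with ribosomal protein genes at 0, 7 with the density peak at 0, 5 when centred over genes on both arrays and 3 without further centring. The depth behind a ratio is unknown, and differences between mice and hybridisations were not measured.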

Other observations

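Slc genes with a ratio on 1 array only were not counted above. Outside the amino acid list, those at least 2-fold higher at day 3 were Slc12a9 (1.70), Slc26a7 (1.66) and Slc22a5 (1.18), the carnitine importer. At day 1 they were Slc22a20 (1.97), Slc16a6 (1.87), Slc2a13 (1.57), an inositol carrier, Slc9a3 (1.39), Slc22a6 (1.19) and Slc26a1 (1.16). These are 6 of the 8 Slc genes with a ratio at day 1 only. Of all 636 genes with a ratio at day 1 only, 57.9% were past 2-fold on the higher side. For the 1614 with a ratio at day 3 only, the share was 15.0%. These genes were chosen after their values were seen, and what left the other array empty was not tested.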
